A study of Mus musculus with 5 samples.

Results

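The regions described here are 918 open chromatin sites of naive CD8+ T cells that lay away from promoters. They were detected both in WT and in Tcf1/Lef1-deficient (dKO) cells and held a much higher rank among the open sites of dKO cells than among those of WT cells. They were chosen from the WT peaks on the 19 autosomes that overlapped a dKO peak by at least 1 bp and whose summit was more than 1000 bp from every annotated transcript start. Each such peak was paired with the overlapping dKO peak of highest pileup, which is the number of sequenced fragments covering the summit. The pileup was turned into a percentile within the full list of its genotype, and a site was kept where its dKO percentile was at least 20 points above its WT percentile. The rule found 918 of 11351 shared autosomal distal sites, which is 8.09% of them. In the opposite direction, 1768 sites (15.6%) ranked at least 20 points higher in WT, and the other 8665, called rank-stable below, stayed within 20 points. The WT list held 31116 peaks in all and the dKO list 25525, and 21235 autosomal WT peaks were shared before promoters were set aside.

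DNase-seq was done on splenic CD8+ T cells sorted as GFP+ TCRbeta+ CD62Lhi CD44lo-med, from hCD2-Cre+ Rosa26 GFP mice that were either Tcf7+/+ Lef1+/+ (WT, 3 replicates) or Tcf7 fl/fl Lef1 fl/fl (dKO, 2 replicates). *Tcf7* encodes Tcf1. Both genotypes thus carried the Cre transgene and the reporter, were on a C57BL/6 background, were 6 to 12 weeks old and included both sexes. The hCD2-Cre transgene is most active in mature peripheral T cells, and GFP marks cells in which Cre has acted, so the sort limits the cells to those with Cre activity but does not by itself measure loss of both proteins. The replicates of each genotype had been pooled before peaks were called, so every value below belongs to 1 pool per genotype, no spread between mice can be given, and no test between the genotypes was possible. The WT list rested on 83923734 fragments and the dKO list on 62242963. A peak within 1 kb of a transcript start was present at 7 of 8 CD8 T cell marker genes in WT and 6 of 8 in dKO (*Thy1* had none in either list, and *Cd3d* none in dKO). One was present at 0 of 5 B cell, 0 of 2 NK cell and 0 of 3 CD4 T cell marker genes in both lists, and at 1 of 5 myeloid marker genes in WT (*Itgam*) and 0 of 5 in dKO. Fewer cells with an open site and less cutting per cell cannot be told apart in such pools.

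DNase I cuts chromatin preferentially where nucleosomes have been displaced, and outside promoters such hypersensitive sites are typically enhancers, silencers or insulators held open by bound transcription factors. Tcf1 and Lef1 are HMG-box factors that bind the Tcf/Lef core and help to establish and keep the identity of T cells. Runx factors, with Ets and AP-1 family partners, occupy many enhancers of CD8+ T cells, and AP-1 and T-box factors are prominent at sites that open upon activation.

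The core shared by Runx factors, TGTGGTT on either strand, was the searched motif whose share in these sites differed most, in percentage points, from that in rank-stable sites, and 6 of the sites that hold it within 50 bp of the WT summit are shown first. They are those of largest percentile difference that either led the ranking or were linked to a gene of the lists described below. Each line gives the plus strand of the mm9 assembly from 50 bp before to 50 bp after the WT summit, with the core in capitals. The positions are chr16:23197046-23197146 for the *St6gal1* site, chr6:108580853-108580953 for the *Bhlhe40* site, chr12:26115957-26116057 for the *Id2* site, chr3:115503928-115504028 for the *S1pr1* site, chr11:83348660-83348760 for the *Ccl5* site and chr10:19214409-19214509 for the *Ifngr1* site. All of them were intergenic.
St6gal1: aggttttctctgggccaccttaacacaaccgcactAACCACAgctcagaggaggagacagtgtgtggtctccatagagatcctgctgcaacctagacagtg
Bhlhe40: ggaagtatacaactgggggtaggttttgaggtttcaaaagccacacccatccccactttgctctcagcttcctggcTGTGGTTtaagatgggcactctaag
Id2: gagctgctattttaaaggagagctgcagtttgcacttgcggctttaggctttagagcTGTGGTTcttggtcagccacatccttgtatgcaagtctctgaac
S1pr1: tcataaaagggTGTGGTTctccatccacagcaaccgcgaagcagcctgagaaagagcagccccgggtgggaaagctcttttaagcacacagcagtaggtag
Ccl5: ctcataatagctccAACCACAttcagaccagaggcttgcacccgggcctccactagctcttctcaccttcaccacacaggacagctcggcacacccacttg
Ifngr1: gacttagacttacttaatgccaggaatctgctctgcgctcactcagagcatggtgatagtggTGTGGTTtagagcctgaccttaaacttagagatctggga

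The sites were of low to middle strength in WT and of middle strength in dKO. Their pileup had a median of 37 fragments in WT (range 17 to 83) and of 48 in dKO (27 to 256), against 58 and 44 fragments at rank-stable sites. Their percentile had a median of 27.03 in the WT list (0.167 to 74.7) and of 59.2 in the dKO list (21.3 to 99.7). These values chose the sites and are given as a description only. Although the WT pool was the deeper one, the raw pileup was higher in dKO at all 918. When each pileup was scaled to the fragments of its pool, the dKO value was 1.71 times the WT one at the median site (range 1.43 to 6.49). The ratio was 1.0004 at the median rank-stable site and 0.65 at the median site ranking higher in WT. The percentile difference had a median of 27.8 points, with 374 sites at 30 points or more, 148 at 40 or more and 57 at 50 or more. The 5 sites just inside the threshold differed by 20.05 to 20.06 points, with 23 to 77 fragments in WT and 29 to 87 in dKO, and the 5 just outside by 19.92 to 19.997 points, with 38 to 73 and 41 to 81 fragments.

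**Figure D1:**
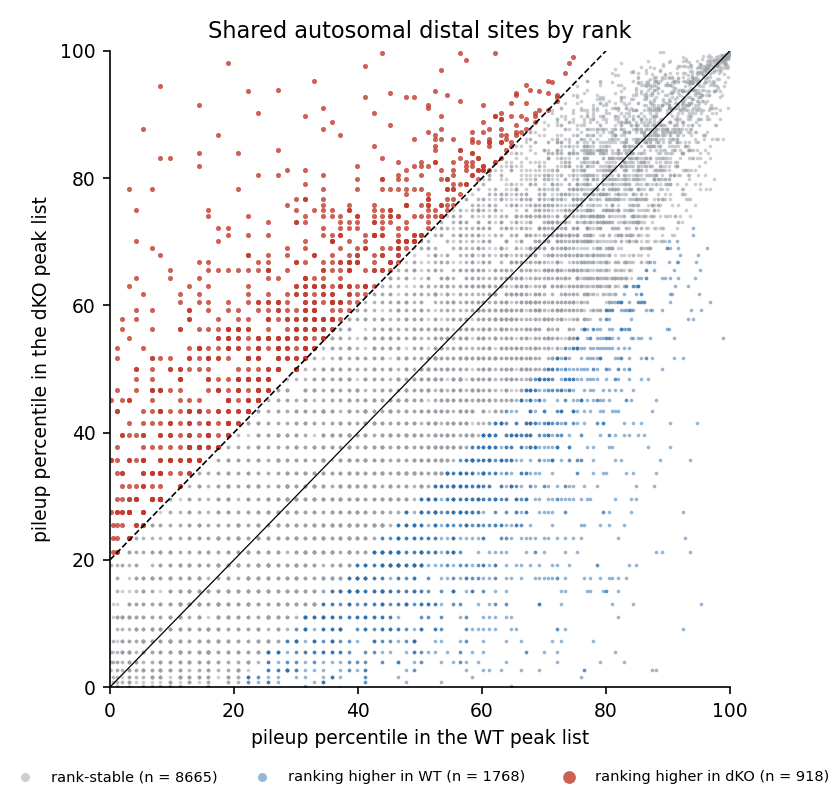
Pileup percentile of each shared autosomal distal site in the dKO list (vertical axis) against the WT list (horizontal axis). Points are sites, the solid line marks equal percentiles and the dashed line a dKO percentile 20 points higher; the 918 sites above it (red) span WT percentiles of 0.167 to 74.7, and none lies among the strongest WT sites at the right edge, where no gain of 20 points is possible.

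A single site at the threshold is not separated from its neighbours by counting alone. A pileup of 37 fragments has a 95% Poisson interval of 26.1 to 51.0, which spans WT percentiles 10.6 to 45.8. A pileup of 48 has one of 35.4 to 63.6, which spans dKO percentiles 38.6 to 76.2. The statements below therefore rest on the sites as a group. Fold enrichment is the same pileup divided by the local background of its pool, so the rule largely fixed its direction, and it is given as a description only. Its percentile was higher in dKO at 913 of the 918 and by at least 20 points at 679. In width, 649 peaks were wider in dKO and 265 narrower. In WT, 799 of the sites reached a fold enrichment of 4 with q under 0.05, the criteria for a chromatin accessible site in these data, and in dKO 917 did. The summits of the paired peaks lay a median of 13.0 bp apart, against 10 bp at rank-stable sites, and at 89 sites they lay over 100 bp apart, so that some pairs join neighbouring summits within a broader open region. The 918 WT peaks met 915 different dKO peaks, since 6 of them shared theirs with another.

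The largest difference was at an intergenic site 23.3 kb from the nearest protein-coding start, that of *A930038C07Rik* (chr6:65598088-65598279), which had 25 fragments in WT and 99 in dKO and went from percentile 8.10 to 94.4. Its summits lay 341 bp apart, and the dKO peak reached beyond the WT one on one side. Second was an intergenic site 41.9 kb from *Gm3209*, with 23 fragments in WT and 81 in dKO, at percentiles 5.41 and 87.8. An intronic site of *Pik3ap1*, which encodes the BCAP adaptor that links receptors to phosphoinositide 3-kinase, lay in intron 2 (chr19:41429113-41429249) and had 29 fragments in WT against 89 in dKO, at percentiles 14.4 and 91.5. The intergenic site nearest to *Acvr2a*, an activin receptor gene 340.9 kb away, went from 21 to 66 fragments and held a RUNX core. The site 7.72 kb from *Dusp10*, which encodes a phosphatase of stress-activated MAP kinases, went from 25 to 73 fragments, and the one 291.5 kb from *Btg1*, an antiproliferative gene of resting lymphocytes, from 26 to 73. These 6 sites ranked at or below percentile 14.4 in WT and at or above percentile 78.2 in dKO. The site 152.1 kb from *Klf3*, which encodes a Krüppel-like repressor, went from 24 to 66 fragments, with summits 371 bp apart. The site 27.7 kb from *St6gal1*, a sialyltransferase gene, went from 22 to 62 fragments (percentiles 4.14 and 74.97) and is the first sequence printed above.

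Repeated sequence touched the top of the ranking. The other 2 of the 10 largest differences were both in intron 1 of *Brd3*, a bromodomain gene, with 32 and 34 fragments in WT and 124 and 96 in dKO, and in them 60.2% and 64.9% of the 31-base words around the summit also occurred elsewhere in the genome. Of the 10 sites with the highest dKO percentile, 6 were mostly such sequence. They were those nearest to *Akr1c21* (66 and 256 fragments in WT and dKO, 62.0% of words repeated), *Camk2b* (60 and 252, 81.3%), *Armc4* (49 and 236 at one site, 83 and 144 at another, 100% at both), *Maml2* (61 and 133, 81.3%) and *Brd3*. The strongest without any repeated word was in intron 45 of *Nbas*, with 82 fragments in WT, 124 in dKO and a RUNX core. Among all 918, words found elsewhere made up over 50% of the window at 23 sites (2.51%, 95% Wilson interval 1.68 to 3.73), against 2.62% of rank-stable sites and 1.47% of sites ranking higher in WT. The study reports keeping uniquely mapped reads alone. Placement in such windows can still be less certain, and its part in these 23 values was not tested.

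By position, 502 of the sites (54.7%, 51.5 to 57.9) were intergenic, 391 (42.6%) intronic and 25 (2.72%) exonic, 15 of the latter in untranslated parts. Rank-stable sites had nearly the same make-up (54.1%, 42.2% and 3.67%), and sites ranking higher in WT were less often intergenic (48.8%, 46.5 to 51.1). The distance to the nearest protein-coding start was longer than in both, and its median was 22.03 kb (interval 19.7 to 25.3), against 15.5 kb at rank-stable sites and 16.3 kb at sites ranking higher in WT. Starts were over 50 kb away at 28.8% of the sites (25.9 to 31.8), against 18.4% (17.6 to 19.2) and 18.7% (16.9 to 20.5), and over 100 kb away at 14.4%, against 7.49% and 7.81%. When sites were ranked by fold enrichment instead of pileup, the medians were 16.9, 15.7 and 17.3 kb. The GC content within 100 bp of the WT summit was also lower, with medians of 48.3% (47.8 to 48.8), 49.8% and 50.7% (50.7 to 51.2) in the same order. By chromosome, the share of shared distal sites that ranked higher in dKO ran from 5.04% on chromosome 11 (36 of 715) to 12.3% on chromosome 16 (54 of 440). The floxed genes themselves were not a centre of these sites, as 10 of the 918 (1.09%) lay within 5 Mb of *Tcf7* or *Lef1*, against 1.28% of rank-stable sites.

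Core motifs of 21 factor families were searched on both strands within 100 bp of the WT summit. All intervals are 95% Wilson intervals over sites; they cover counting error only, and sites are not replicates of a genotype. The RUNX core was present at 239 of the 918 sites (26.0%, 23.3 to 29.0), at 1194 of 8665 rank-stable sites (13.8%, 13.1 to 14.5) and at 245 of 1768 sites ranking higher in WT (13.9%, 12.3 to 15.5), and at 14.8% of all 11351. Seen from the motif, 14.2% (12.7 to 16.0) of the 1678 shared distal sites with a RUNX core ranked higher in dKO, compared with 8.09% of all. More than 1 RUNX core was present at 25 of the sites (2.72%), against 1.22% and 1.07%. The AP-1 core TGANTCA, bound by Fos and Jun dimers, was present at 111 sites (12.1%, 10.1 to 14.4), against 8.21% (7.65 to 8.80) and 7.41% (6.28 to 8.72). The GATA core AGATAAG was present at 38 sites (4.14%, 3.03 to 5.63), against 2.26% (1.97 to 2.60) and 1.98% (1.43 to 2.74). At least 1 of these 3 cores was found at 343 of the sites (37.4%), 22.4% of rank-stable sites and 21.7% of sites ranking higher in WT, and RUNX with AP-1 together at 31 (3.38%), 1.29% and 1.02%.

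The CTCF piece was less frequent in these sites than in both other groups, and for the remaining cores no interval over all 918 lay apart from that of rank-stable sites, although that of PU.1 only met it. This piece of the CTCF motif, AGGGGGC, was present at 30 of the 918 (3.27%, 2.30 to 4.63), against 760 rank-stable sites (8.77%, 8.19 to 9.38) and 158 sites ranking higher in WT (8.94%, 7.69 to 10.4). CTCF is the main insulator and loop anchor protein. Among peaks with a fold enrichment of at least 8 alone, the shares were 8.26%, 11.9% and 11.3%. The Tcf/Lef core ATCAAAG was present at 21 sites (2.29%, 1.501 to 3.47), close to the 2.94% (2.61 to 3.32) of rank-stable sites, whereas 123 sites ranking higher in WT held it (6.96%, 5.86 to 8.24). Besides a repetitive *Brd3* intronic site, the largest differences among those 21 were at a site near *Egr3* and at one near *Gm8989*. The former lay 11.5 kb from the start of *Egr3*, an early growth response gene of activated lymphocytes, held both a Tcf/Lef and a RUNX core and had 47 fragments in WT and 93 in dKO. The latter lay 53.4 kb away and had 30 and 54. The E/Zeb core CACCTG, bound by E proteins and Zeb repressors, was present at 15.6% (13.4 to 18.1), against 18.4% (17.6 to 19.3) and 20.5% (18.7 to 22.5). The PU.1 core GAGGAAGT, bound by an Ets factor of myeloid and B cells, was present at 68 sites (7.41%, 5.885 to 9.28), against 5.39% (4.93 to 5.885) and 6.11% (5.08 to 7.32). Its share among sites of mean percentile 20 to 80 was 7.54% (5.93 to 9.53) against 5.28% (4.74 to 5.87). Above the median GC content it was 11.95% (8.93 to 15.8) against 6.47% (5.77 to 7.26), and at or below it 4.70% (3.25 to 6.75) against 4.38% (3.82 to 5.02). The intervals of the sites overlapped those of rank-stable sites for E/Zeb, NFAT (2.51% against 4.09%), Ebf (1.31% against 2.39%), ETS (12.4% against 10.01%), KLF (3.92% against 2.93%), IRF (7.63% against 8.46%), Foxo (4.25% against 3.74%) and T-box factors (12 of 918 against 104 of 8665).

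**Figure D2:**
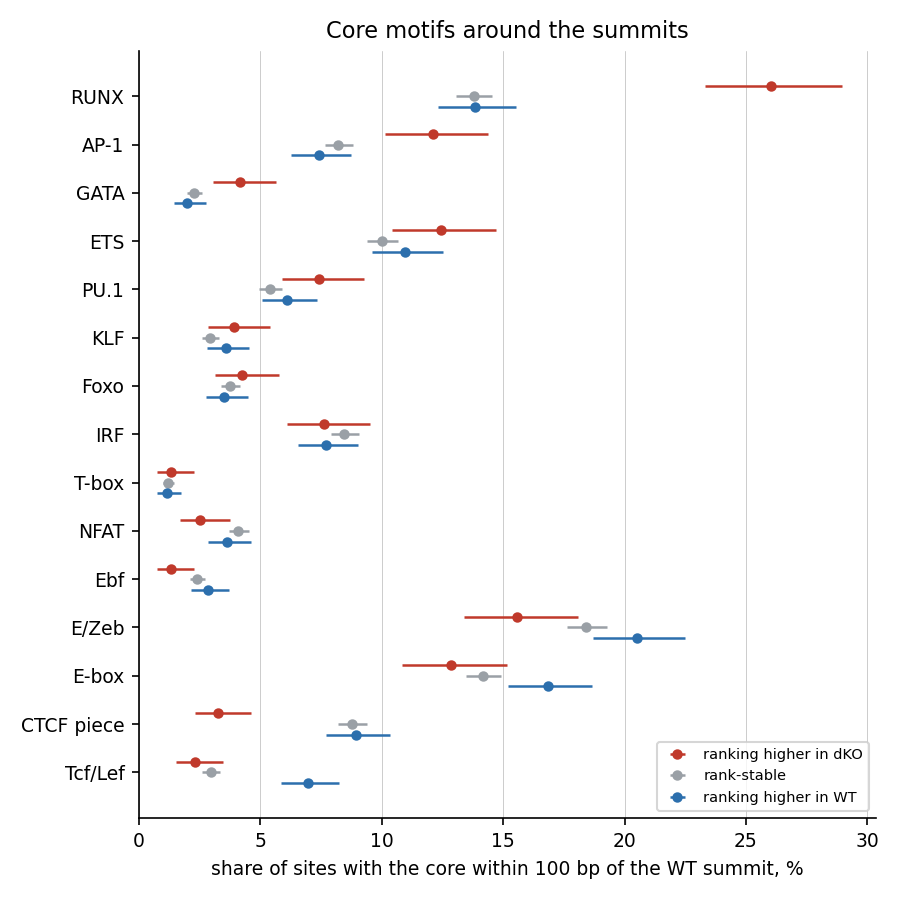
Share of sites, in percent on the horizontal axis, with each of 15 core motifs within 100 bp of the WT summit, for sites ranking higher in dKO (red), rank-stable sites (grey) and sites ranking higher in WT (blue). Points are shares and bars 95% Wilson intervals; RUNX stands out at 26.0% of the red sites, CTCF is at 3.27% of them, and Tcf/Lef is highest in the blue sites at 6.96%.

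The share with a RUNX core was higher in bins of larger rank difference on the dKO side, although the intervals at 20 to 30 points and at 30 points or more overlapped. It was 12.2% (11.01 to 13.4) where the dKO percentile was up to 10 points lower, 15.1% where it was up to 10 points higher, 17.9% at 10 to 20 points, 24.4% (21.0 to 28.2) at 20 to 30 points and 28.3% (24.0 to 33.1) at 30 points or more. On the WT side it stayed between 11.9% and 14.99%. Since the sites were weaker in WT and poorer in GC than the rest, the comparison was repeated within strata. Among sites whose mean percentile lay between 20 and 80, the RUNX share was 25.6% (22.8 to 28.7), against 12.8% of rank-stable sites and 13.9% of sites ranking higher in WT. At or below the median GC content it was 27.8% against 16.2% and 19.7%, and above it 23.0% against 11.2% and 9.56%. With windows centred on the dKO summit it was 27.2% against 14.0% and 14.3%. The AP-1 share in the middle stratum was 11.6% (9.61 to 14.0) against 7.77% (7.12 to 8.48), and the GATA share 4.07% (2.92 to 5.63) against 2.26%. At or below the median GC content (575 of the sites), AP-1 was at 10.8% against 8.02% of rank-stable sites, and GATA at 4.35% against 2.61%. Above it (343 sites), AP-1 was at 14.3% against 8.41% and GATA at 3.79% against 1.89%.

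RUNX cores were gathered around the summits. In bins of 10 bp, there were 18.5 to 26.1 cores per 1000 sites within 40 bp of the WT summit and 5.45 to 13.1 per 1000 at 50 to 100 bp from it. Rank-stable sites had 9.23 to 15.003 per 1000 within 40 bp and 3.69 to 6.46 beyond 50 bp. The 239 sites with a RUNX core resembled the other 679 in rank, with a median difference of 28.1 against 27.8 points and median pileups of 36 and 47 fragments in WT and dKO against 38 and 49. They lay a median of 25.5 kb from the nearest protein-coding start against 20.2 kb. The ETS core was present at 19 of the 239 (7.95%) and at 95 of the 679 (14.0%). No intervals were computed for this split.

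**Figure D3:**
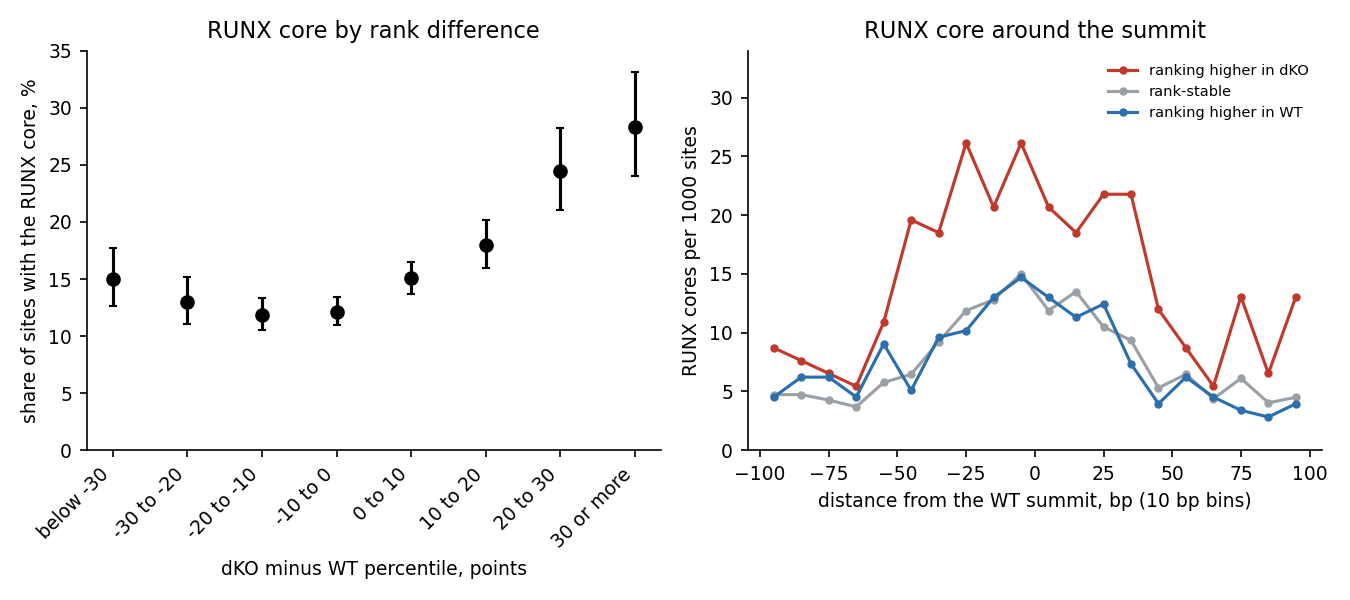
Left, share of shared distal sites with a RUNX core within 100 bp of the WT summit, in percent, by the difference between the dKO and WT percentiles in points, with 95% Wilson intervals; it goes from 12.2% just below 0 to 28.3% at 30 points or more. Right, RUNX cores per 1000 sites by distance from the WT summit in 10 bp bins, for sites ranking higher in dKO (red), rank-stable sites (grey) and sites ranking higher in WT (blue).

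To place the sites near genes, each was linked to the protein-coding genes whose body or 50 kb of upstream sequence held it, and otherwise to the nearest start. A link of this kind says where a site is, not which gene it acts on. The sites were spread widely, over 1148 genes, 14.2% of the 8081 genes linked to any shared distal site, and 1009 of the 1148 had only 1. Short lists of genes were then read for their sites, each as a share to be set beside the 8.09% of all shared distal sites. Sites ranking higher in dKO made up 9 of 77 at effector and cytotoxic genes (11.7%, 6.27 to 20.7), 5 of 41 at inhibitory and exhaustion genes (12.2%, 5.32 to 25.5), 2 of 19 at regulatory T cell genes (10.5%) and 6 of 64 at bZIP and IRF factor genes (9.38%). They made up 12 of 174 at genes of the naive state and T cell identity (6.90%, 3.99 to 11.7), 5 of 74 at cytokine signalling genes (6.76%), 3 of 22 at B lineage genes (13.6%, 4.75 to 33.3) and 1 of 18 at myeloid genes (5.56%). Every one of these intervals includes 8.09%, so the short lists place single sites and carry no statement about a list.

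Among effector and cytotoxic genes, the largest difference was at the site 29.7 kb from *Bhlhe40*, which encodes a transcription factor that promotes cytokine production by activated T cells. It had 33 fragments in WT and 66 in dKO, at percentiles 20.7 and 78.2, and held RUNX, PU.1 and KLF cores. The site linked to *Id2*, which encodes an inhibitor of E proteins found in effector cells, lay 335.1 kb from that gene's start and had 34 fragments in WT and 61 in dKO, at percentiles 22.3 and 74.0. It was 1 of 8 shared distal sites linked to *Id2*. *Ccl5*, a chemokine of effector and memory CD8+ T cells, had 2 such sites out of the 2 shared distal sites linked to it. They lay 4.69 and 19.9 kb from its start and had 29 and 36 fragments in WT against 44 and 52 in dKO, and the nearer one is printed above. Both ranked in the weaker part of the WT list and near the middle of the dKO list or above it.

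*Ifng*, which encodes interferon gamma, had 2 of its 8 shared distal sites among the 918, 158.2 and 158.8 kb from its start and next to each other (chr10:118036271-118036548 and chr10:118036807-118036970), with 32 and 49 fragments in WT and 37 and 68 in dKO. The 3 other shared peaks within 50 kb of either, which include the other of the pair, had a median difference of -12.3 points, so the rank was not higher across the neighbourhood. A site 6.50 kb from *Fasl*, the ligand of the death receptor Fas, had 32 and 43 fragments, and was 1 of 13 shared distal sites linked to that gene. The remaining sites were in intron 4 of *Il18r1*, a subunit of the interleukin 18 receptor, with 59 and 66 fragments and RUNX and IRF cores, and near the chemokine genes *Ccl3* and *Ccl4*, with 55 and 63.

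Inhibitory and exhaustion genes had sites in introns 1 and 2 of *Tox2* (36 and 40 fragments in WT, 45 and 57 in dKO) and in intron 1 of *Tox* (34 and 41), both of which encode HMG-box factors of chronically stimulated T cells. They were 2 of the 2 shared distal sites linked to *Tox2* and 1 of the 11 linked to *Tox*. Further sites lay 245.7 kb from *Nr4a3*, a nuclear receptor gene induced by antigen receptor signalling (27 and 41 fragments, with a RUNX core), and 34.8 kb from *Tigit*, which encodes an inhibitory receptor (51 and 55). They were 1 of 7 shared distal sites linked to *Nr4a3* and 1 of 4 linked to *Tigit*. Of the genes used to recognise regulatory T cells, *Ikzf2*, which encodes Helios, had a site 67.0 kb from its start with 32 and 53 fragments, and *Nrp1* one in intron 12 with 58 and 66. Among bZIP genes, the site nearest to *Jun*, 53.9 kb from its start, had 29 fragments in WT and 52 in dKO, with summits 394 bp apart. *Bach2*, which encodes a repressor that competes with AP-1 and keeps T cells quiescent, had a site in intron 1 with 60 and 75 fragments. It was 1 of 16 shared distal sites linked to *Bach2*. *Maf*, *Fosl1*, *Fos* and *Bach1* had 1 site each, of 2, 1, 6 and 6 shared distal sites, with 29 to 39 fragments in WT and 34 to 46 in dKO.

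Genes of the naive state and T cell identity were represented as well. The site 86.0 kb from *S1pr1*, the receptor with which T cells leave lymphoid organs, had 42 fragments in WT and 61 in dKO. It was 1 of 13 shared distal sites linked to that gene. *Ets1*, which encodes an Ets factor of mature T cells, had 2 of its 25 shared distal sites among the 918 (43 and 45 fragments in WT, 55 at both in dKO). *Ikzf1*, which encodes Ikaros, had 2 of 9, in intron 3 (20 and 45 in WT, 30 and 54 in dKO). *Gata3* had 3 of its 7 shared distal sites among the 918, at 123.7 to 184.0 kb from its start and with 21 to 60 fragments in WT and 30 to 65 in dKO. The site between *Cd3e* and its neighbours, 6.44 kb from the *Cd3e* start, was one of the weakest in WT, with 19 fragments (percentile 1.14), and had 31 in dKO (percentile 29.6). *Satb1*, *Bcl2* and *Ccr7* had 1 site each, of 14, 11 and 7 shared distal sites, that of *Ccr7* in an untranslated part of exon 3. Receptors for interferon gamma and TGF-beta were linked to further sites. *Ifngr1* was linked to 2 (34 and 38 fragments in WT, 49 at both in dKO), *Tgfbr1* to 1 (40 and 51) and *Tgfbr2* to 1 (71 and 85), and the kinase gene *Jak2* to 1 (19 and 27). In the same order, these genes had 7, 3, 18 and 3 shared distal sites. A site in intron 10 of *Blk*, which encodes a kinase of B cells, had 25 and 55 fragments, and one between *Blnk* and *Dntt* 32 and 46. The 1 site linked to a myeloid gene lay 192.5 kb from *Ly86*, with 36 and 41 fragments.

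**Figure D4:**
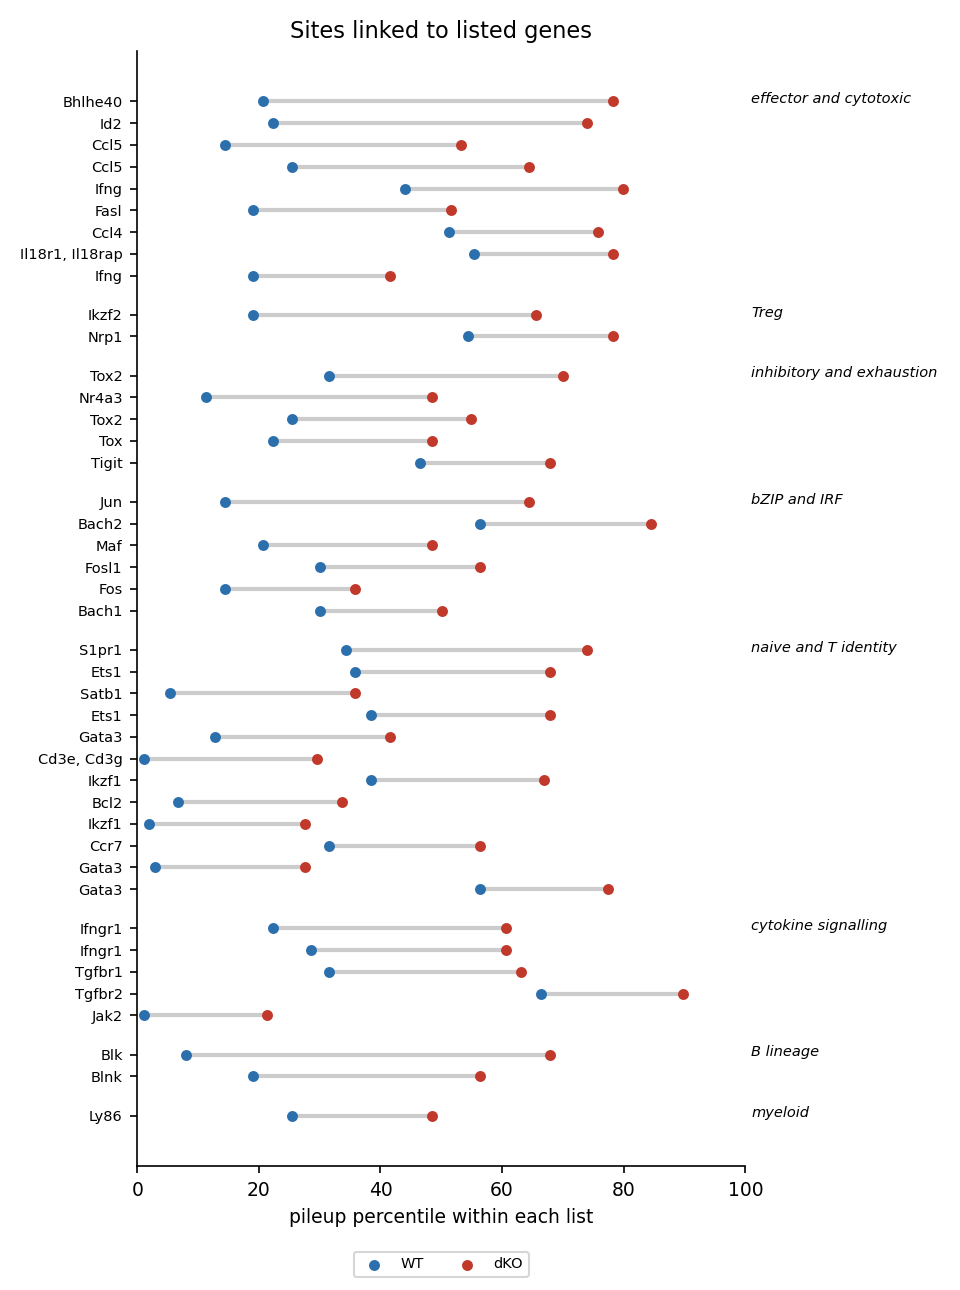
Pileup percentile in the WT list (blue) and in the dKO list (red) of each site ranking higher in dKO that was linked to a gene of the short lists, apart from 1 site that is not reported, with 1 line per site and the linked gene at its left. The grey bars are at least 20 points long by the rule; the longest is that of *Blk*, from 8.10 to 67.9, and the one reaching the highest dKO percentile is that of *Tgfbr2*, at 89.8.

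Some loci held several of the sites. When sites closer than 50 kb to each other were joined, 15 groups of 3 or more arose, 12 of them with 3 and 3 with 4, while 722 sites stood alone. How often sites drawn from all shared distal sites would form such groups was not counted. Some groups lay in dense stretches, where 4 of 19 shared distal sites at *Gm15319* and 4 of 9 at *Fli1* were among the 918. In others every shared distal site of the stretch was, as given below. In 8 genes, 4 or more sites were linked to 1 gene. *Slc9a9*, a sodium/proton exchanger gene, had 5 of its 9 shared distal sites among the 918, with 25 to 62 fragments in WT and 37 to 78 in dKO, and 3 of them lay within 6.97 kb of each other. At *Pmaip1*, which encodes the death-promoting protein Noxa, 4 of 5 shared distal sites were among the 918, with 34, 44, 61 and 74 fragments in WT and 55, 60, 70 and 85 in dKO. *Rgs3*, a regulator of G protein signalling, had 4 of 13, led by a site in intron 10 with 30 and 62 fragments. In *D16Ertd472e*, 4 sites in introns 2 and 3 lay within 13.6 kb, had 32 to 70 fragments in WT and 46 to 94 in dKO, and were the only shared distal sites in that stretch. *Fli1*, which encodes an Ets factor, had 4 of 15, all in intron 1, 2 of them meeting the same dKO peak, with dKO percentiles of 48.4 to 65.6. *Tbl1xr1*, which encodes a corepressor subunit, had 4 of 13. The 4 sites at *Gm15319*, of 38 shared distal sites linked to it, lay in sequence of which 82.5% to 100% was repeated elsewhere. *Gm20388*, with 4 of 59, is an annotation of several Mb that runs across other genes. Chosen after their values were seen, *Gfod1* (43, 44 and 20 fragments in WT, 83, 61 and 36 in dKO) and *Aim2* (50, 58 and 33 in WT, 62, 94 and 38 in dKO) are further examples in which all 3 shared distal sites of the stretch were among the 918.

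The sites were also set against gene lists and regions read from the supplement of the study by name and position only. The transcript lists, super enhancers and hubs came from other assays on WT and dKO cells, and the lists of lineage genes from published RNA-seq of immune cell types. Genes with higher transcript levels in dKO cells by RNA-seq were linked to 77 of the 918 (8.39%, 6.76 to 10.4), to 4.95% (4.51 to 5.43) of rank-stable sites and to 3.96% (3.15 to 4.97) of sites ranking higher in WT. Of the 204 genes of that list with a shared distal site, 57 had one among the 918. Of the 576 shared distal sites linked to the list, 13.4% (10.8 to 16.4) ranked higher in dKO, compared with 8.09% of all. Genes with lower transcript levels in dKO cells were linked to 22 of the 918 (2.40%, 1.59 to 3.60) and to 3.10% (2.76 to 3.49) of rank-stable sites, with overlapping intervals. Their share was 5.20% (4.26 to 6.34) of sites ranking higher in WT. Of genes named above, *Id2*, *Nr4a3*, *Aim2* and *Ccr7* are on the list of lower genes, and *Bhlhe40*, *Ccl5* and *Ifng*, for example, on that of higher ones. Among lists of lineage genes, those of gamma delta T cells were linked to 6.43% (5.02 to 8.20) of the sites, against 4.30% (3.90 to 4.75) of rank-stable ones. This list is not separate from the transcript lists. Some of its genes with such sites, among them *Ccl5*, *Pik3ap1* and *Xcl1*, are also on the list of genes higher in dKO cells. Others, such as *Crtam* and *P2rx7*, are on the list of lower ones. For effector CD8+ T cells (3.92%, 2.85 to 5.38, against 2.93%, 2.60 to 3.31), B cells (2.83% against 2.39%), NK cells (3.81% against 3.36%), granulocytes (4.14% against 5.07%), regulatory T cells (2.07% against 1.71%) and T cells in general (3.16% against 3.60%), the intervals overlapped.

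Super enhancers are long stretches of dense H3K27ac, a mark of active enhancers. The supplement lists differential super enhancers and hubs that were linked to its differentially expressed or lineage-enriched genes, and only those listed were used. Listed super enhancers with more of the mark in dKO cells overlapped 90 of the 918 sites (9.80%, 8.04 to 11.9). They overlapped 5.16% (4.71 to 5.64) of rank-stable sites and 4.41% (3.55 to 5.47) of sites ranking higher in WT. Super enhancers with more of the mark in WT cells overlapped 15 (1.63%, 0.993 to 2.68), 2.08% and 4.13% (3.30 to 5.16). Chromatin interaction hubs called as specific to dKO cells overlapped 16 of the sites (1.74%, 1.08 to 2.81), against 0.98% (0.794 to 1.21), and hubs specific to WT cells 2 (0.218%, 0.0598 to 0.791), against 1.25% (1.03 to 1.502) and 2.55%. Of the 239 sites with a RUNX core, 12.6% lay in super enhancers with more H3K27ac in dKO cells, and of the 679 without one 8.84%. No intervals were computed for this split. The transcript lists, super enhancers and hubs compare the same genotypes in other libraries, and the study chose them for a difference between WT and dKO cells. The listed regions were also tied to its differential genes, so their overlap is not separate from the transcript lists. The lists of lineage genes were not chosen for such a difference, but they share genes with the transcript lists.

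**Figure D5:**
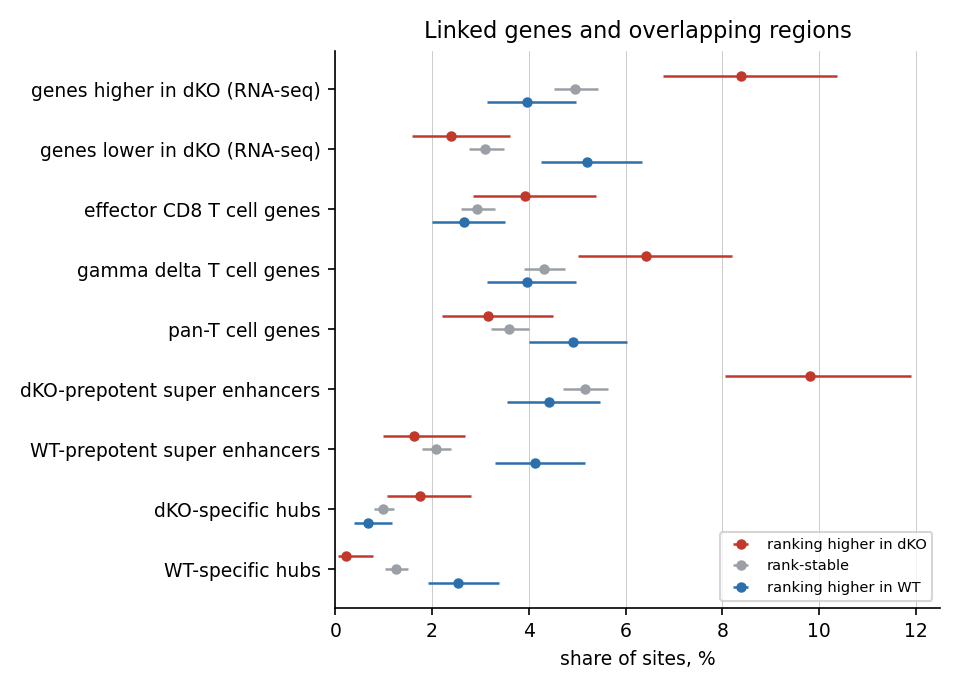
Share of sites, in percent, linked to genes of 5 lists or overlapping 4 kinds of region that the study linked to its differential genes. Sites ranking higher in dKO are red, rank-stable sites grey and sites ranking higher in WT blue, with 95% Wilson intervals. The red points lie to the right for genes higher in dKO cells (8.39%) and super enhancers with more H3K27ac in dKO cells (9.80%), and to the left for hubs specific to WT cells (0.218%).

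Other shared peaks around the sites were then read for their own rank difference. Of the 918, 795 had another shared peak within 50 kb, and the median difference of those neighbours was -1.12 points (-2.00 to -0.344) at the median site, compared with -4.08 (-4.30 to -3.82) around rank-stable sites and -6.12 (-6.63 to -5.54) around sites ranking higher in WT. It was above 0 around 358 of the 795 (45.03%), 30.8% of rank-stable sites and 23.6% of sites ranking higher in WT. The promoter peaks of linked genes had a median difference of -4.54 points (-5.66 to -3.60) at 629 sites, against -5.86 (-6.25 to -5.52) and -6.80 (-7.68 to -6.25). The median of neighbours was thus 2.95 points above that around rank-stable sites, while the sites themselves differed by a median of 27.8 points. With ranks by fold enrichment, the medians were -2.52 points around sites ranking higher in dKO and -2.81 around rank-stable sites, which are closer together. With only the 20000 peaks of highest -log10 p in each list, the median of neighbours was 2.17 points, against -0.274 and -1.97.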

How the data were processed

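Naive CD8+ T cells of 3 WT and 2 dKO replicates were lysed and digested with DNase I, and the libraries were sequenced from both ends. The authors mapped read pairs to mm9 with Bowtie2 2.2.5 and report keeping uniquely mapped reads alone. They pooled the replicates of each genotype and ran MACS2 2.1.1.20160309 on each pool for paired ends, with no control and at p under 1e-05. They deposited 1 peak list per genotype. Per the file headers, the same pool had been given to MACS2 in 2 forms, and total fragments were 2.0 times those kept in each genotype. This was read as identical fragments being kept once, and any effect on the pileup was not tested. Pileup, a deposited signal, counts fragments over the summit and is unscaled. Fold enrichment, also as deposited, divides it by the background around the summit in the same pool, which gives a ratio. The deposited −log10 p, and the score deposited as −log10 q, set each summit against this background. Positions and widths are in bp, and the summits and widths are as deposited.

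From these lists, peaks were paired, ranked and selected as the opening states, with average ranks for ties. Starts, exons and introns came from gencode vM1 of mm9, and a position counts as exonic where any transcript of a protein-coding gene has an exon there. Sequence was read with pysam 0.24.0 and samtools 1.23.1. The window of 100 bp on each side of the summit was searched on both strands for Tcf/Lef ATCAAAG, ETS CAGGAAGT, PU.1 GAGGAAGT, RUNX TGTGGTT, T-box AGGTGTGA, AP-1 TGANTCA, Bach TGANTCAGC (which contains AP-1), CREB TGACGTCA, KLF GGGTGTGG, NF-kB GGANTTTCC, IRF GAAANNGAA, NFAT TGGAAAA, Nr4a AAAGGTCA, E-box CAGCTG, E/Zeb CACCTG, the GATA family core AGATAAG, Foxo TGTTTAC, the STAT family core TTCCNGGAA, Ebf CCCNNGGGA, Oct ATGCAAAT and a CTCF piece AGGGGGC. Repeated sequence is the percent of the window's 31-base words found elsewhere in the genome. Intervals are 95% Wilson intervals for shares and binomial order-statistic intervals for medians. The steps were checked on simulated peaks. Computation used Python 3.11.15 with numpy 2.4.6, scipy 1.17.1 and pandas 2.3.3. Figures were drawn with matplotlib 3.10.9.

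The sites, gene lists and motifs were chosen with earlier results of these data known. Named sites are the 10 of largest difference, the 10 of highest dKO percentile, the 5 on each side of the threshold, those linked to a short-list gene (1 of them is not reported here) or to a gene with 4 or more, and the 3 of largest difference with a Tcf/Lef core. The study's lists hold its own comparisons; they were used as names and positions. The differential accessible sites in its supplement were chosen on these libraries, so their overlap with the sites was counted but is not reported here.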

Additional observations from a re-analysis of the deposited data

How the results depend on the processing

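The selection was repeated with 18 other settings and 3 chosen after seeing the data (sites of mean percentile 20 to 80, a pileup scaled to the fragments of its pool 1.5 times higher in dKO, and windows without repeated sequence). The number of sites was 1426 at a threshold of 15 points and 374 at 30 points. The RUNX share was 17.6% among peaks with a fold enrichment of at least 8, against 12.2% of rank-stable sites. Among the 20000 peaks of highest -log10 p it was 18.3% against 12.6%. It was 22.9% against 14.2% with ranks by fold enrichment, and 23.2% against 13.8% at 15 points. In windows of 50 bp each side (shorter by construction) it was 18.5% against 9.62%, and above the median GC content 23.0% against 11.2%. In all 18 alternatives run on it the share was above that of rank-stable sites (9.62% to 16.2%). The AP-1 share was 9.66% at a fold enrichment of at least 8, against 6.71% of rank-stable sites and 8.17% of sites ranking higher in WT. In windows of 50 bp it was 6.21% against 4.40% and 4.02%. The Tcf/Lef share was 0.763% in windows of 50 bp, against 1.35% of rank-stable sites. The median GC content was 46.8% at a fold enrichment of at least 8, 49.3% with ranks by fold enrichment and 50.5% in windows of 50 bp. At rank-stable sites it was 49.8%, 49.8% and 52.5% under the same settings. The intergenic share was 60.3% at a fold enrichment of at least 8, against 56.9% of rank-stable sites, and it lay above that of rank-stable sites in 9 of 13 alternatives only. The median difference of neighbours was -0.220 points at a fold enrichment of at least 8, against -3.19 around rank-stable sites. It was -2.52 with ranks by fold enrichment and also by -log10 p (-2.81 and -3.96 around rank-stable sites). With ranks among distal peaks it was -0.0694 against -3.17, within 100 kb -2.33 against -4.14, and among the 20000 peaks 2.17 against -0.274. It lay above that around rank-stable sites in all 15. The share linked to genes higher in dKO cells by RNA-seq stayed within its interval in all 15 (6.81% to 8.82%). The causes of these changes were not tested. No paired analysis was possible because the lists pool the replicates of each genotype, and for the same reason no replicate could be left out. Depth limits single sites: the median pileups of 37 and 48 fragments leave intervals wider than the 20-point threshold.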
